A study of Mus musculus with 3 samples.

Results

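Cell barcodes of 3 mouse medulloblastomas were chosen by the share of their counts that came from the mitochondrial genome, and the nuclear-encoded genes of the resulting sets were compared within each tumour. Among barcodes with at least 200 counts, those with more than 10% of counts from genes whose symbol begins with mt- formed the mito-high set, and those with at most 5% formed the mito-low set. The mito-high set held 286 and the mito-low set 1129 of the 2267 barcodes of that depth, out of 20959 barcodes in all. By tumour, the mito-high set had 97, 55 and 134 barcodes in tumours 1, 2 and 3, and the mito-low set had 604, 24 and 501.

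The tumours were G-Smo medulloblastomas, which arise in mice of genotype hGFAP-Cre/SmoM2 on a C57BL/6 background. A Cre recombinase under the human GFAP promoter switches on SmoM2, a constantly active form of the Hedgehog transducer Smoothened, in neural stem cells and their descendants, which include the granule neuron progenitors of the cerebellum. Every animal had received palbociclib, an inhibitor of the cyclin-dependent kinases CDK4 and CDK6, in the POx-palbo nanoparticle form at 25 mg/kg intraperitoneally once a day for 5 days from postnatal day 10, and the tumours were taken at postnatal day 16. All 3 libraries thus belong to 1 group, each is taken as 1 animal, and untreated tumours were not analysed here. The tissue was dissociated with papain and the cells were captured by Drop-seq, a droplet method that reads the 3′ ends of polyadenylated RNA.

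Mitochondria carry their own small circular genome, which encodes 2 ribosomal RNAs, the transfer RNAs and a few subunits of the respiratory chain and ATP synthase. All other mitochondrial proteins are encoded in the nucleus and imported. In single-cell libraries a high mitochondrial share is widely used as a sign of a stressed or broken cell that has lost cytoplasmic RNA, but the share also differs between healthy cell types.

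The libraries held 1150463, 248617 and 1324350 counts, of which 3.97%, 11.4% and 5.61% were mitochondrial. Tumour 2 stood apart: it had 148 barcodes of at least 200 counts, against 1060 and 1059 in the others, and only 24 of them were mito-low. Pairs of libraries shared 3, 8 and 3 barcode sequences. With 1 group of 3 tumours, p-values weigh a change against the spread between these animals, with variance estimates in part shared across genes. Fits without a tumour rest on 2 pairs and lean more on that sharing. Their small p-values are therefore a poor measure of the spread between animals. An exact sign permutation of 3 pairs cannot go below a two-sided p of 0.25, so levels of single sets carry no test.

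The mitochondrial share had no gap at either threshold. Just above 10% (10 to 11%) there were 23, 6 and 25 barcodes in tumours 1, 2 and 3, and just below it (9 to 10%) there were 35, 15 and 38. Just above 5% (5 to 6%) there were 108, 14 and 133, and just below it (4 to 5%) 159, 12 and 144. The share exceeded 30% in 2, 8 and 12 barcodes, so most mito-high barcodes lay not far above their threshold, with medians of 12.2%, 14.4% and 13.4%. Barcodes of less than 100 counts had a median share of 1.47%, 10.7% and 4.12%, which follows the order of the tumours' overall shares.

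**Figure D1:**
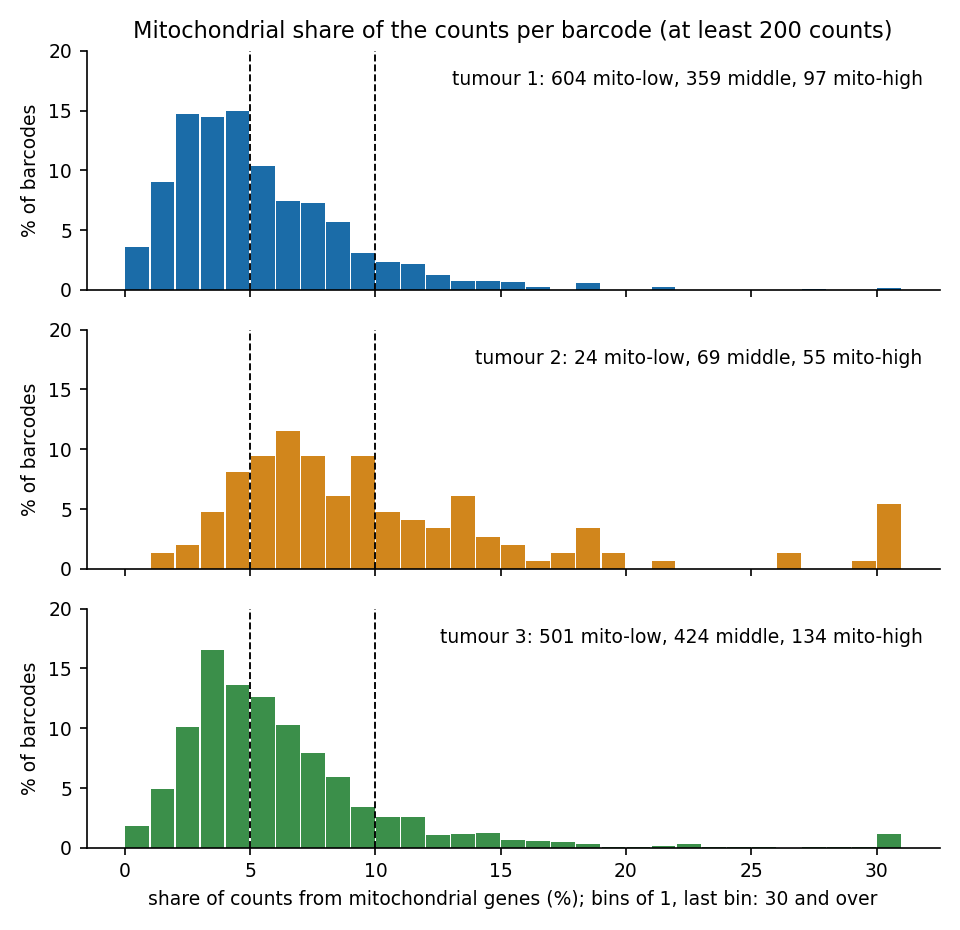
Share of counts from mitochondrial genes (x axis, percent, bins of 1 with all shares from 30 in the last) against the percentage of barcodes with at least 200 counts (y axis) in each tumour; dashed lines mark the thresholds at 5 and 10. Each distribution runs through both thresholds without a gap, and tumour 2 has the fewest mito-low barcodes, 24.

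The sets differed in share by their definition, and mito-high barcodes were somewhat shallower in tumours 2 and 3. The median number of non-mitochondrial counts was 324, 209 and 247 in the mito-high barcodes of tumours 1, 2 and 3, and 309.5, 243.5 and 295 in the mito-low barcodes. After thinning each barcode to 150 non-mitochondrial counts, which left out 14 mito-high and no mito-low barcodes, the median number of nuclear genes was 132, 122 and 132 in the mito-high set and 131, 123 and 130 in the mito-low set. At equal depth, then, mito-high barcodes held as many different nuclear transcripts as mito-low ones, to within 2 genes in each tumour.

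The extra mitochondrial RNA was mainly ribosomal. The values in this paragraph were used to choose the sets and are given as a description. The large ribosomal RNA mt-Rnr2 made up 9.41%, 17.8% and 12.8% of all counts in the mito-high sums of tumours 1, 2 and 3 and 1.47%, 2.35% and 2.17% in the mito-low sums, a ratio of 6.42, 7.56 and 5.89. The small ribosomal RNA mt-Rnr1 had ratios of 6.59, 5.15 and 7.71. The 10 protein-coding mitochondrial genes listed in the files together made up 3.94%, 2.5% and 2.41% in the mito-high sums and 1.53%, 0.882% and 1.02% in the mito-low sums, a ratio of 2.57, 2.84 and 2.37. Ribosomal RNA thus formed 81.4% ± 8.7 (SD, n = 3) of mitochondrial counts in the mito-high sums and 64.1% ± 12.5 in the mito-low sums. Of the 3 transcripts taken as markers of the mito-high set, mt-Rnr2 was the one whose part of the mitochondrial counts was larger there.

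The messenger RNAs did not share a common ratio. For mt-Cytb, cytochrome b of complex III, the ratio was 1.94, 1.97 and 1.82, and for mt-Nd1, a subunit of complex I, it was 2.08, 2.24 and 2.09. For mt-Nd5, another subunit of complex I, it was 4.61, 3.53 and 3.93, and for mt-Nd2 it was 3.08, 4.08 and 3.01. The ranges of mt-Nd2 and mt-Nd5 over the tumours lay above those of mt-Cytb and mt-Nd1, while the catalytic oxidase subunit mt-Co1 had 2.23, 1.79 and 2.54. When the same numbers of barcodes were taken from the top of the share of protein-coding mitochondrial genes alone, they included 40 of the 97, 25 of the 55 and 52 of the 134 mito-high barcodes. From the bottom of that share they included 466 of the 604, 9 of the 24 and 347 of the 501 mito-low barcodes. The rankings with and without ribosomal RNA thus chose partly different barcodes. Protein-coding counts per barcode are few, and the part of counting error in this difference was not tested.

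**Figure D2:**
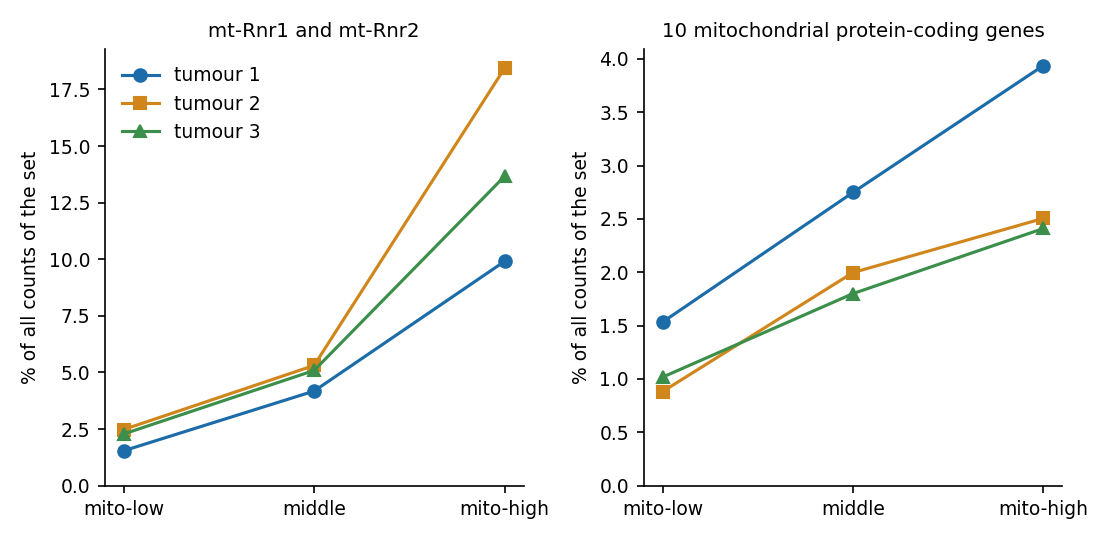
Share of all counts of each set (y axes, percent) from the 2 mitochondrial ribosomal RNAs (left) and from the 10 mitochondrial protein-coding genes (right) in the mito-low, middle (over 5% and at most 10%) and mito-high sums (x axis), 1 line per tumour. In the mito-high sums ribosomal RNA lies between 9.91% and 18.4% of counts and protein-coding RNA between 2.41% and 3.94%.

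For the nuclear genome, the counts of each set were added up within its tumour and scaled to the non-mitochondrial total, so each level below is a number of counts per 10000 non-mitochondrial counts. The mito-high sums held 41964, 12523 and 39636 non-mitochondrial counts and the mito-low sums 237537, 10520 and 183516. edgeR's quasi-likelihood test, with the tumour as a block, was run on the 4088 nuclear genes with at least 30 counts over the 6 sums. No gene passed an adjusted p of 0.05 (0 of 4088, 0.0%), nor did any with DESeq2 or limma-voom. At an unadjusted p under 0.05 there were 161 genes by edgeR, 37 by DESeq2 and 226 by limma-voom. The edgeR genes were 86 with a higher level (2.1% of those tested) and 75 with a lower level (1.83%) in mito-high barcodes. In all 3 tumours the level was higher for 431 genes (10.5%) and lower for 534 (13.1%), and the 3 mito-high levels did not overlap the 3 mito-low levels for 168 higher (4.11%) and 232 lower (5.68%) genes. The median log2 change over all genes tested was -0.02. It depended on the count minimum, at -0.28 with no minimum and 0.001 with at least 100 counts per gene. For lists of genes with few counts, -0.02 is therefore not a like reference.

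Tumour 2 weighed on this comparison through 2 barcodes. Its deepest mito-low barcode, with 3092 non-mitochondrial counts, supplied 29.4% of that set's counts and held 32 of its 33 endothelial, 16 of its 17 mural and 28 of its 37 astrocyte marker counts. Of those 28 astrocyte marker counts, 19 were of Sparcl1. Another barcode, with 1625 non-mitochondrial counts, held 80 of the set's 82 microglial marker counts, 54 of its 57 counts of Apoe and all 17 of Ctsd. Levels of glial and vascular genes in the mito-low sum of tumour 2 are therefore mostly levels of 2 barcodes. Both also add to the total to which that sum is scaled, which lowers the levels of genes they hold few counts of. The deepest one held 3 granule neuron and 21 granule progenitor counts, against 81 and 99 in the other mito-low barcodes. Results below are with all 3 tumours unless stated. Where they moved most, values without tumour 2 or without the barcodes of over 1000 non-mitochondrial counts, a limit chosen after these barcodes were seen, stand beside them. Without tumour 2, edgeR called 9 genes higher (0.228% of 3947 tested) and 2 lower (0.0507%) in mito-high barcodes. Without barcodes of over 1000 non-mitochondrial counts it called 11 higher (0.291% of 3784) and 1 lower (0.0264%). That limit removed 3, 0 and 2 mito-high and 15, 2 and 8 mito-low barcodes of tumours 1, 2 and 3. It thus changed the sums of tumours 1 and 3 as well, and its calls cannot be credited to the 2 barcodes of tumour 2 alone. Leaving out tumour 1 or tumour 3 gave no call, but only 1851 and 2366 genes could be tested there.

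Nuclear-encoded genes of the respiratory chain had more lower than higher values in mito-high barcodes, while lists of other mitochondrial genes differed in direction. The respiratory chain draws on both genomes, and 77 of 82 listed nuclear subunits of complexes I to V were tested. Of these, 30 had a higher and 47 a lower value, 1 higher and 2 lower at an unadjusted p under 0.05, with a median log2 change of -0.16. The median was -0.02 for all genes tested and -0.12 for the 979 with the shortest transcripts. Whether transcript length has a part in the lower values was not tested. The 37 genes of complex I, the NADH dehydrogenase, had a median of -0.19 with all tumours and -0.06 without tumour 2. They summed to 55.1, 66.3 and 56.3 in the mito-high sets of tumours 1, 2 and 3 and to 53.1, 83.7 and 67.4 in the mito-low sets. These levels overlapped, and the direction was not the same in the 3 tumours. Its accessory subunit Ndufs6 had 1 count in the mito-high sums against 47 in the mito-low sums, a level 10.3 times lower with a 95% counting interval from 1.75 to 413. That interval pools the tumours without their pairing, for a gene singled out by its few counts, and is no test. Ndufs6 did not pass the threshold of edgeR. Ndufa12, of the same complex, lay the other way, with 4.05, 3.99 and 4.29 in mito-high against 1.77, 1.9 and 2.62 in mito-low sums, and its levels did not overlap. Its log2 change was 0.95 (SE 0.41, edgeR adjusted p = 0.9998, from 0.57 to 1.0 over 24 alternatives), and -0.02 with more than 20% in the high set.

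Proteins of the mitochondrial ribosome had mostly lower values in these barcodes. Of 77 mitochondrial ribosomal protein genes, 38 could be tested, of which 11 had a higher and 27 a lower value in mito-high barcodes, with a median log2 change of -0.43 beside -0.02 for all genes. At an unadjusted p under 0.05 there were 0 higher and 1 lower. With no count minimum the median of all genes was itself -0.28, and whether low counts have a part in the lower values was not tested. Their summed level was 36.5, 43.9 and 50.7 in the mito-high sums and 42.4, 71.3 and 54.1 in the mito-low sums, lower in each tumour though with overlapping ranges. In barcodes of at least 100 and under 200 counts the direction was the other one, with 34 higher and 26 lower values among 60 tested and a median of 0.10. Mrps25, of the small subunit, had no count in the mito-high sums and 34 in the mito-low sums. Pooled over the tumours this is at least 2.47-fold lower when 3 counts over the group are taken as the floor. Mrps25 did not pass the threshold of edgeR. Genes of the tricarboxylic acid cycle, which feeds the respiratory chain, had 12 higher and 4 lower values among 16, none at an unadjusted p under 0.05, and a median of 0.20. Import and carrier genes had 7 higher and 14 lower among 21 with a median of -0.20, and mitochondrial chaperones and proteases 6 higher and 3 lower among 9 with a median of 0.11. Genes that copy and transcribe mitochondrial DNA were largely below the count minimum, with 6 of 32 tested. Tfam, which packages and activates mitochondrial DNA, had 5 counts in mito-high and 16 in mito-low sums and was not tested.

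Messenger RNA of granule neurons was less abundant in mito-high barcodes in tumours 1 and 3. Medulloblastoma cells of the Hedgehog type resemble granule neuron progenitors, and some go on to switch on neuronal genes. Neurod1, a transcription factor of differentiating granule neurons, had levels of 7.86, 17.6 and 11.9 in the mito-high sums of tumours 1, 2 and 3 and 19.0, 13.3 and 26.4 in the mito-low sums. In tumours 1 and 3 the mito-high level was the lower one by a wide margin, whereas tumour 2 lay the other way and made the groups overlap. With all tumours the log2 change was -0.91 (SE 0.26, edgeR adjusted p = 0.26), and over 24 alternatives the change kept its sign in each, with adjusted p from 1.05e-07 to 0.9997. It passed the threshold in 8 of them: without tumour 2 the log2 level of Neurod1 fell by 1.21 (SE 0.18, edgeR adjusted p = 1.05e-07), and without barcodes of over 1000 non-mitochondrial counts it fell by 0.99 (SE 0.19, edgeR adjusted p = 7.08e-05). Without tumour 1 or tumour 3 the log2 change was -0.53 and -0.60 (edgeR adjusted p = 0.9992 and 0.9994). Without the deep barcodes tumour 2 had 17.6 in mito-high against 19.0 in mito-low barcodes, so that the mito-high level was lower in all 3 tumours.

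**Figure D3:**
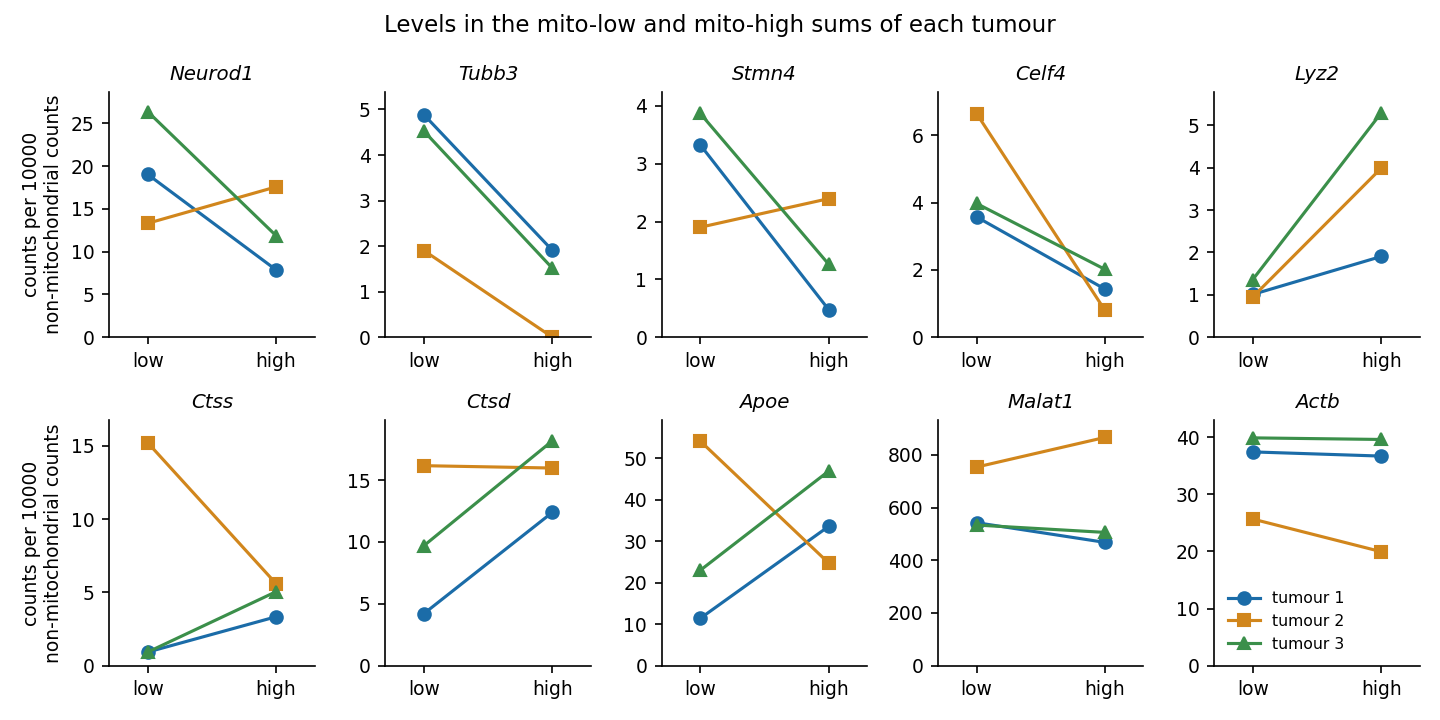
Counts per 10000 non-mitochondrial counts (y axes, each from 0) of 10 genes in the mito-low and mito-high sums (x axes), 1 line per tumour. Neurod1 goes from 19.0 to 7.86 in tumour 1, from 26.4 to 11.9 in tumour 3 and the other way in tumour 2, Lyz2 is higher in the mito-high sum of each tumour, and Apoe and Ctss of tumour 2 run against the other tumours.

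Other neuronal genes had lower levels as well, each below the threshold with all tumours. Celf4, a neuronal RNA-binding protein, had 1.43, 0.799 and 2.02 in mito-high sums and 3.58, 6.65 and 3.98 in mito-low sums. Its 3 mito-high levels lay below all 3 mito-low levels, with a log2 change of -1.35 (SE 0.46, edgeR adjusted p = 0.64, from 0.27 to 0.9997 over its alternatives). Tubb3, the neuronal beta tubulin, had 1.91, 0 and 1.51 against 4.88, 1.9 and 4.52, a log2 change of -1.54 (SE 0.46, edgeR adjusted p = 0.42, from 0.12 to 0.9997). Each tumour's mito-high level was the lower one, but tumour 2 rested on 2 counts. Stmn4, a neuronal stathmin that binds tubulin, had 0.477, 2.4 and 1.26 against 3.33, 1.9 and 3.87. Without tumour 2 its log2 level fell by 2.06 (SE 0.53, edgeR adjusted p = 0.04). With all tumours it was -1.69 (SE 0.53, edgeR adjusted p = 0.43, up to 0.9997 over 24 alternatives).

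Across the 41 genes of the granule neuron list, 29 were tested, 6 with a higher and 23 with a lower value in mito-high barcodes. None was higher and 7 were lower at an unadjusted p under 0.05, and the median log2 change was -0.50, the lowest of the lists plotted, beside -0.02 for all genes. Without tumour 2 the median was -0.57. Members differed in direction: the growth-cone gene Gap43 had 4.53, 15.2 and 4.54 against 5.01, 11.4 and 8.77, and Dcx, which stabilises microtubules in migrating neurons, had 5.0, 1.6 and 4.04 against 4.0, 0 and 2.56, higher in each tumour. Summed over the list, the level was 83.6, 90.2 and 87.6 in mito-high sums and 130.5, 79.9 and 130.2 in mito-low sums. The mito-high sums thus agreed closely between tumours (87.1 ± 3.3, SD, n = 3), and the mito-low sum of tumour 2 was the one that differed.

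That sum moved to the side of the others when depth was held more even or cells of other types were taken out. Each of these steps left out or thinned the same 2 deep barcodes of tumour 2. In barcodes of at least 200 and under 400 non-mitochondrial counts the list summed to 92.3, 79.2 and 74.5 in mito-high and 143.9, 143.2 and 147.3 in mito-low barcodes. After thinning to 150 counts it was 94.4, 92.5 and 94.0 against 137.7, 122.2 and 139.6. Without barcodes that carried markers of another cell type it was 94.0, 96.8 and 94.3 against 137.9, 132.7 and 132.8, or 95.1 ± 1.5 against 134.5 ± 3.0 (SD, n = 3). In these 3 versions no mito-high level overlapped a mito-low level. For the mito-low sum of tumour 2 they are not separate checks. Taking out other cell types left 22 barcodes and 5803 counts there, the same as leaving out the 2 deep barcodes alone. A limit is that the list was chosen with earlier results of these data known.

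Neurod1 counts were also found in fewer mito-high barcodes. At 150 counts per barcode, 11.5%, 14.3% and 18.9% of mito-high barcodes had a Neurod1 count in tumours 1, 2 and 3, against 24.0%, 20.8% and 30.3% of mito-low barcodes. Without thinning the shares were 21.7%, 25.5% and 23.1% against 37.3%, 33.3% and 43.9%. The exact 95% binomial intervals of the thinned shares did not touch in tumour 1 (5.86 to 19.6 against 20.7 to 27.6), overlapped by a narrow margin in tumour 3 (12.5 to 26.8 against 26.3 to 34.6) and overlapped widely in tumour 2. Intervals and floors cover counting error only. Barcodes called microglia or macrophage, which should lack Neurod1, had a count in 11.8% of 17, 0% of 5 (exact 95% upper bound 52.2%) and 5.26% of 19 after thinning, with median depths before thinning of 498, 385 and 359.5 counts. The exact 95% interval of that background in tumour 1, 1.46 to 36.4%, covers both its mito-high and its mito-low share, so these few barcodes set no background level.

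The lower neuronal level followed the mitochondrial share in steps. Over 6 ranges of the share, from at most 3% through 5, 7.5, 10 and 15% to over 15%, the granule neuron list summed to 144.5, 118.7, 100.1, 91.7, 80.9 and 94.1 in tumour 1. In tumour 3 it summed to 141.2, 124.1, 100.7, 92.4, 86.3 and 90.6. In both, the level was highest in the lowest range, dropped through the middle ranges and levelled off above 10%. In tumour 2 it was 44.4, 102, 118.3, 116.1, 85.9 and 96.6, where the ranges below 5% held only 5 and 19 barcodes. Neurod1 alone went from 22.4 to 6.32 and 13.8 in the last ranges of tumour 1, and from 32.4 to 13.04 and 8.88 in those of tumour 3. Cytosolic ribosomal protein genes kept between 226 and 248.4 up to 15% in tumour 3 and were at 320.6 above it, while in tumour 1 they lay between 160.9 and 174.3 throughout. In tumour 2 they went from 232.1 in the lowest range to 126.8 above 5% and 139.9 in the highest.

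**Figure D4:**
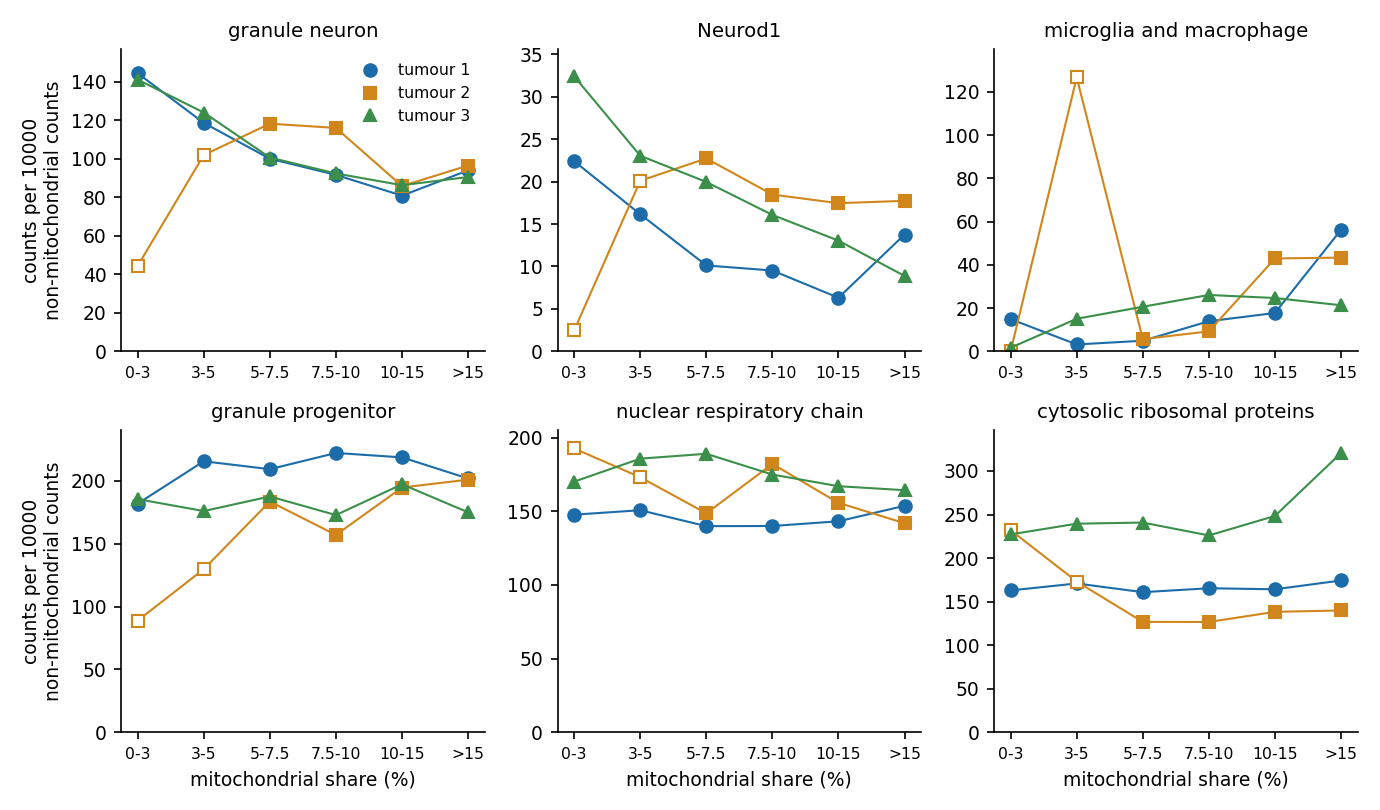
Counts per 10000 non-mitochondrial counts (y axes) of 5 gene lists and Neurod1 in barcodes of 6 ranges of mitochondrial share (x axes, percent), 1 line per tumour; open symbols are ranges of fewer than 20 barcodes. The granule neuron list goes from 144.5 to 94.1 in tumour 1 and from 141.2 to 90.6 in tumour 3, while ribosomal protein and respiratory chain levels of tumour 1 stay between 160.9 and 174.3 and between 139.9 and 153.7; ribosomal proteins of tumour 3 reach 320.6 in the last range.

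Genes of granule progenitors did not share the lower level. This list had 18 higher and 6 lower values among 24 tested genes, 1 in each direction at an unadjusted p under 0.05, with a median of 0.17. It summed to 215.2, 197.2 and 191 in mito-high and 200.1, 114.1 and 179.4 in mito-low sums, higher in each tumour with ranges that overlapped. Nfia, a transcription factor of granule progenitors and of glia, had 41.2, 30.3 and 24.7 against 29.7, 8.56 and 18.3, a log2 change of 0.66 (SE 0.23, edgeR adjusted p = 0.78, unadjusted 0.0047, adjusted from 0.14 to 0.9997 over 24 alternatives). Its level was higher in each tumour, and the groups overlapped. Without tumour 2 its log2 change was 0.46 (SE 0.13, edgeR adjusted p = 0.14). Mycn, a growth-promoting target of Hedgehog signalling, lay the other way, with 2.38, 2.4 and 2.52 against 3.79, 3.8 and 5.01, a log2 change of -0.81 (SE 0.41, edgeR adjusted p = 0.9998). Its 3 mito-high levels were all below the mito-low levels.

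Genes of microglia, the resident macrophages of the brain, had higher values in mito-high barcodes. Of the 9 tested genes in the microglia and macrophage list of 18, 7 had a higher and 2 a lower value, 5 higher and 1 lower at an unadjusted p under 0.05, and the median was 1.29. Lyz2, a lysozyme of macrophages, had 1.91, 3.99 and 5.3 against 1.01, 0.951 and 1.36, so its levels did not overlap (log2 change 1.56, SE 0.50, edgeR adjusted p = 0.47, from 0.019 to 0.9997 over its alternatives). Tyrobp, a signalling adaptor of myeloid cells, had only 2 counts in the mito-high sums and 28 in the mito-low sums, a ratio of 3.05 with an interval from 0.77 to 26.5. Ctss, the cathepsin S of microglia, had 3.34, 5.59 and 5.05 against 0.926, 15.2 and 0.926. Tumours 1 and 3 were higher in mito-high barcodes and tumour 2 was lower, where its deep microglial barcode held all 16 mito-low counts. Without tumour 2 the log2 level of Ctss rose by 2.14 (SE 0.46, edgeR adjusted p = 0.0033, from 2.52e-05 to 0.9997 over its alternatives).

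The list as a whole summed to 25.7, 43.1 and 23.7 in mito-high and 8.59, 78 and 10.3 in mito-low sums. Without barcodes of over 1000 non-mitochondrial counts the sums were 29.1, 43.1 and 25.3 against 5.51, 3.45 and 8.07, higher in each tumour and not overlapping. Ctsd, the lysosomal protease cathepsin D, had 12.4, 15.97 and 18.2 against 4.21, 16.2 and 9.7 with all barcodes. It rose by 1.19 without tumour 2 (SE 0.21, edgeR adjusted p = 1.98e-05), and its adjusted p ran from 2.52e-16 to 1.0 over 24 alternatives. Apoe, a lipid carrier made by microglia and astrocytes, had 33.6, 24.8 and 46.9 against 11.4, 54.2 and 23.0. It rose by 1.28 without tumour 2 (SE 0.13, edgeR adjusted p = 1.51e-17), with adjusted p from 6.72e-38 to 1.0 over 24 alternatives. With more than 20% in the high set both had the opposite sign, at -1.27 for Ctsd and -0.94 for Apoe (edgeR adjusted p = 0.97 for both). Apoe, Ctsd, Ctss, Tyrobp, Stmn4, Gap43, Dcx, Sparc, Sparcl1 and Bsg were chosen for naming after their values were seen.

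The number of glial barcodes is given here beside these levels, and its part in them was not tested. A barcode was called as another cell type when it held at least 3 counts from at least 2 genes of that type's list. At 150 counts per barcode, microglia or macrophage calls made up 4.17%, 6.12% and 3.15% of mito-high and 0.662%, 4.17% and 0.998% of mito-low barcodes. Without thinning they made up 4.12%, 5.45% and 5.22% against 1.32%, 4.17% and 1.6%. Seen from the other side, 4 of 17, 3 of 5 and 7 of 20 barcodes with a microglia call were mito-high, against 80 of 957, 50 of 137 and 120 of 999 barcodes with no call. The shares were higher in the mito-high set of each tumour, also in tumour 2, where the summed microglial level was the lower one. Their exact 95% intervals overlapped in each tumour. In tumour 2 the shares without thinning rested on 3 of 55 and 1 of 24 barcodes, with intervals of 1.14 to 15.1% and 0.105 to 21.1%. When barcodes with any call of another cell type were removed, the log2 change of Apoe was 0.31 and that of Ctsd 0.35 (edgeR adjusted p = 1.0 for both). Neurod1 was the single gene called in that fit, and it fell by 0.97 (SE 0.19, edgeR adjusted p = 0.0014).

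Astrocyte and Bergmann glia genes had higher values in mito-high barcodes too, for 6 of 6 tested genes of 17 listed, 2 of them at an unadjusted p under 0.05, with a median of 0.79. Slc1a3, a glutamate transporter of astroglia, had 7.86, 3.99 and 0.505 against 2.78, 0 and 1.31, so tumour 3 went against the other 2. The list summed to 46.7, 20.8 and 16.2 against 21.8, 35.2 and 12.9. Without barcodes of over 1000 non-mitochondrial counts it was 47.9, 20.8 and 16.4 against 18.2, 13.8 and 12.9, higher in each tumour with overlapping ranges. Sparc and Sparcl1, matrix proteins of astroglia and other cells, were both called higher without those barcodes, by 2.09 (SE 0.37) and 1.34 (SE 0.33) on the log2 scale (edgeR adjusted p = 1.71e-05 and 0.019, up to 1.0 over the alternatives). In tumour 2 all 19 mito-low counts of Sparcl1 were in the deepest barcode, which also held the vascular marker counts. The astrocyte list level of that sum thus came largely from this barcode. Without tumour 1 the value of Sparcl1 was -0.30. Astrocyte calls at 150 counts made up 4.17%, 0% and 2.36% of mito-high and 1.32%, 0% and 0.399% of mito-low barcodes, and without thinning 12.4%, 3.64% and 3.73% against 4.64%, 4.17% and 1.8%. In tumour 2, 0 of 49 mito-high and 0 of 24 mito-low thinned barcodes had such a call, with exact 95% upper bounds of 7.25% and 14.25%.

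Vascular genes had lower values in mito-high barcodes with all tumours, and the deep barcode of tumour 2 held most of their mito-low counts there. The 2 tested endothelial genes had a median of -1.81, and of 0.31 without tumour 2. Bsg, a membrane protein of brain endothelium and many other cells, had 2.15, 3.19 and 3.53 against 4.8, 39.9 and 3.05. Its log2 change was -1.34 (SE 0.35, edgeR adjusted p = 0.14, from 0.0022 to 1.0 over its alternatives), and -0.12 without barcodes of over 1000 non-mitochondrial counts. Of its 42 mito-low counts in tumour 2, 40 were in the deep barcode. Cdkn1a, the p53 target and cell cycle inhibitor p21, had 1 count in mito-high sums against 32 in mito-low sums. Pooled over the tumours this is a ratio of 6.98 with an interval from 1.17 to 284, and Cdkn1a did not pass the threshold of edgeR. Of these 32 counts 8 were from tumour 2, 7 of them in the same deep barcode. Oligodendrocyte genes had 2 higher and 2 lower values among 4 tested, while mural, neutrophil, GABAergic, ependymal and lymphocyte genes were too rare to test.

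No list of stress or death genes had more than 2 members past an unadjusted p of 0.05. Immediate early genes, which dissociation can switch on, had 4 higher and 7 lower values among 11 tested and none at an unadjusted p under 0.05. Fos had 2.15, 7.99 and 3.28 against 2.57, 3.8 and 3.32. Genes of the ATF4 stress response, which is known to follow mitochondrial dysfunction, had 2 higher and 4 lower among 6 and a median of -0.33, none at an unadjusted p under 0.05. The p53 and cell death list had 5 higher and 6 lower among 11, 0 higher and 1 lower at that p, and the lower one was Cdkn1a. Heat shock genes had 5 higher and 3 lower among 8, with the endoplasmic chaperone Hsp90b1 at 24.5, 15.97 and 15.6 against 13.1, 12.4 and 13.7 (log2 change 0.53, SE 0.24, edgeR adjusted p = 0.9998), its levels not overlapping. Antioxidant genes had 2 higher and 13 lower values among 15, 2 of them lower at that p, and a median of -0.48, or -0.30 without tumour 2. Among them the ferritin light chain Ftl1 had 7.39, 6.39 and 10.6 against 10.02, 37.1 and 10.1, with tumour 3 against the other tumours and tumour 2 farthest apart. Without barcodes of over 1000 non-mitochondrial counts its mito-low level in tumour 2 was 3.45, from 2 counts in place of 39, and tumour 2 too was then higher in mito-high barcodes.

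With all tumours and barcodes, Malat1, Actb and the cytosolic ribosomal proteins had log2 changes near 0, while cytoskeleton genes leaned to lower values. The value of Malat1 depended on which barcodes were used. Malat1, a nuclear noncoding RNA, had 468, 866.4 and 505.9 in mito-high and 542.8, 753.8 and 533.8 in mito-low sums, a log2 change of -0.03 (SE 0.23, edgeR adjusted p = 0.9998). Without barcodes of over 1000 non-mitochondrial counts it had 479.6, 866.4 and 510 against 538.8, 1029 and 536.8, lower in each tumour, with a log2 change of -0.16 (SE 0.05, edgeR adjusted p = 0.47). At 150 counts per barcode a Malat1 count was found in 88.5%, 100% and 96.9% of mito-high and 98.8%, 100% and 98.4% of mito-low barcodes, and without thinning in 94.8%, 98.2% and 97.8% against 99.7%, 100% and 99.4%. The exact 95% intervals of the thinned shares did not touch in tumour 1 (80.4 to 94.1 against 97.6 to 99.5). Actb, the cytoplasmic beta actin, had 36.7, 19.96 and 39.6 against 37.4, 25.7 and 39.9, a log2 change of -0.08 (SE 0.23, edgeR adjusted p = 0.9998). Both differed more between tumour 2 and the others than between sets. The cytosolic ribosomal proteins had 34 higher and 25 lower values among 59 tested genes, 1 higher and 0 lower at an unadjusted p under 0.05, with a median of 0.07. Of the cytoskeleton and tubulin list 2 had a higher and 16 a lower value, 0 and 3 at that p, the lowest 3 by p being Tubb3, Tubb2a and Tubb2b, with a median of -0.27. When tested genes were ranked by transcript length and divided into 4 sets of 978 or 979, the median log2 change was -0.12 in the shortest set, then -0.05 and 0.01, and 0.07 in the longest.

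**Figure D5:**
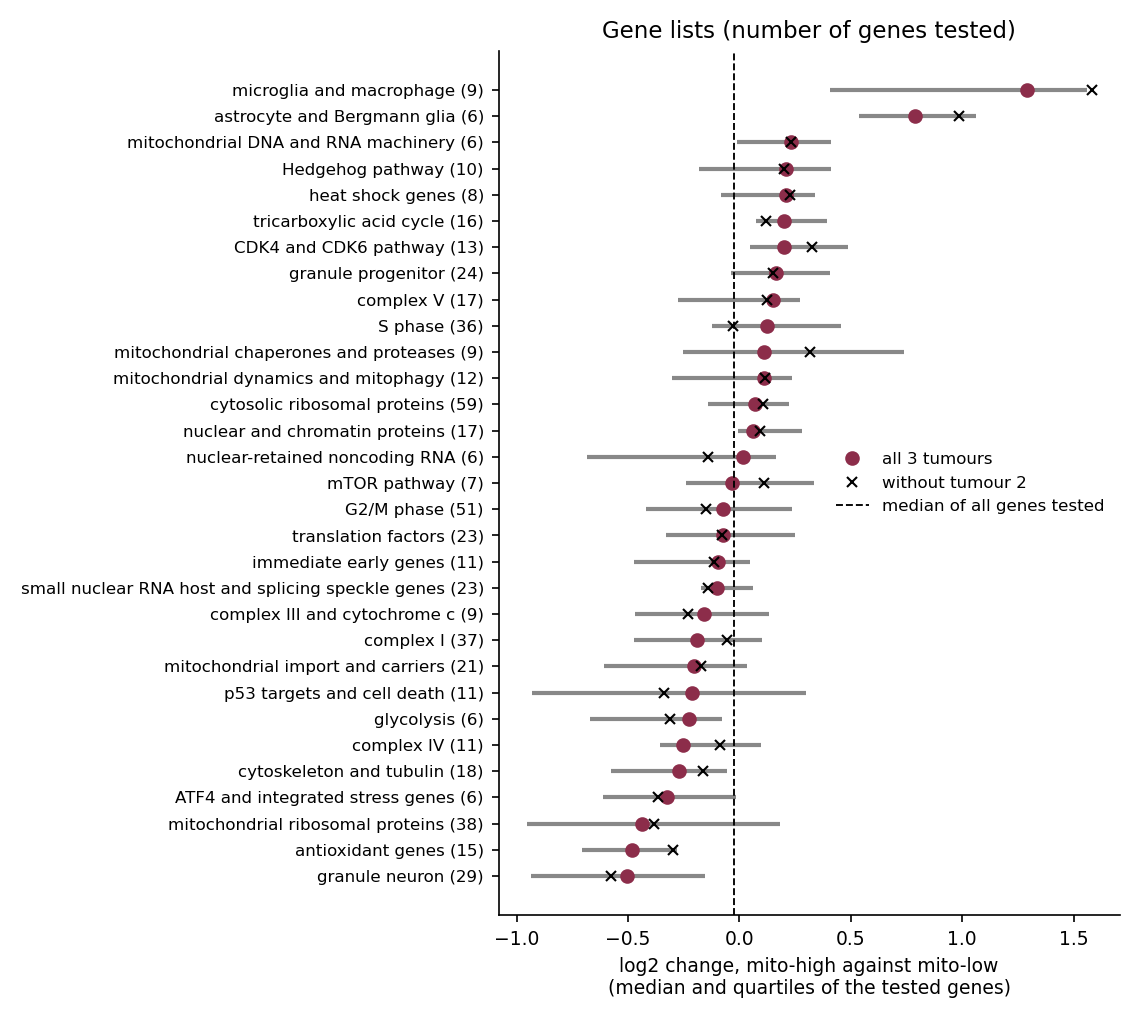
Median (points) and quartiles (bars) of the log2 change of tested genes in mito-high against mito-low barcodes (x axis) for lists with at least 5 tested genes (y axis, number in brackets); crosses give the median without tumour 2 and the dashed line the median of all genes. Granule neuron genes have the lowest median, -0.50, and microglial (1.29) and astrocyte genes (0.79) the highest.

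Genes of the drug's target pathway and of Hedgehog signalling leaned to higher values without passing the threshold. Of 13 tested CDK4 and CDK6 pathway genes 10 had a higher and 3 a lower value, 0 and 1 at an unadjusted p under 0.05 (Cdkn1a), with a median of 0.20. Of 10 Hedgehog genes 7 had a higher and 3 a lower value, 0 and 1 at that p (Mycn, above), with a median of 0.21. Ccnd2, the D-type cyclin of granule progenitors, had 17.6, 15.97 and 21.7 against 17.8, 10.46 and 23.0, a log2 change of 0.05 (SE 0.24). Cdk4 had 5.24, 5.59 and 3.78 against 4.42, 0 and 5.45, a log2 change of 0.11 (SE 0.35), and Cdk6 had 6.67, 3.19 and 3.03 against 4.59, 1.9 and 1.64, a log2 change of 0.67 (SE 0.38). Cdk6 was higher in each tumour (in tumours 1 and 3 without barcodes of over 1000 non-mitochondrial counts) and Cdk4 was not, and each of the 3 had an edgeR adjusted p of 0.9998. Gli1, the transcription factor whose mRNA reports Hedgehog activity, had 1.67, 1.6 and 1.51 against 1.43, 0.951 and 1.14 (log2 change 0.34, SE 0.62). Proliferation genes gave a mixed picture: Mki67 had 17.2, 15.97 and 13.4 against 9.77, 9.51 and 14.3. The S phase list had 23 higher and 13 lower values among 36, 2 higher and 0 lower at an unadjusted p under 0.05, with a median of 0.12 that became -0.03 without tumour 2.

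Shallower barcodes, of at least 100 and under 200 counts, were left out by the rule and were compared in the same tumours. Split at the same shares they gave 116, 305 and 387 mito-high and 1446, 89 and 2390 mito-low barcodes. No gene passed (0 of 4301, 0.0%), with 59 higher (1.37%) and 51 lower (1.19%) at an unadjusted p under 0.05. The granule neuron list was not lower here: it summed to 133.5, 138.1 and 118.1 in mito-high and 117.2, 166.4 and 114.7 in mito-low barcodes, with 15 higher and 12 lower values among 27 and a median of 0.03 beside -0.03 for all genes. Neurod1 had 17.1, 24.1 and 24.2 against 20.8, 28.3 and 27.3, lower in each tumour by a smaller step, a log2 change of -0.22 (SE 0.22, edgeR adjusted p = 0.9992). Whether the change of Neurod1 differed between the depths was not tested. The microglia and macrophage list was not on the higher side here, with 4 higher and 5 lower values among 9 tested, none at an unadjusted p under 0.05, and a median of -0.03. Ctss had 0.741, 0.618 and 1.15 against 0.889, 0 and 1.25, with 8 counts in all in the mito-high sums.

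Astrocyte genes and Nfia were higher at this depth as they were above 200 counts. Of the astrocyte list 8 of 8 tested genes had a higher value, 3 of them at an unadjusted p under 0.05, with a median of 0.77. The list summed to 46, 16.4 and 20.1 against 17.6, 10.3 and 14.1. Nfia had 43, 34.9 and 26.3 against 29.2, 16.3 and 17.2, a log2 change of 0.70 (edgeR adjusted p = 0.94, unadjusted 0.00094). Its level was thus higher in each tumour at both depths. Granule progenitor genes were again on the higher side, with 18 of 24 and a median of 0.20. Malat1 was on the lower side in each tumour, at 188.3, 748.5 and 319 against 276.3, 1132 and 339.3 (log2 change -0.41, edgeR adjusted p = 0.9992), and limma-voom called it lower there.

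Barcodes between the sets, with over 5% and at most 10% of mitochondrial counts, were compared with the same mito-low sums, which the comparison above also used. They numbered 359, 69 and 424. No gene passed (0 of 5411, 0.0%), with 66 higher (1.22%) and 84 lower (1.55%) at an unadjusted p under 0.05. Without tumour 2, 4 genes were called higher (Apoe, Lyz2, Sox9 and Sparcl1) and 2 lower (Neurod1 and Rab14). Neurod1 had 9.91, 20.95 and 18.7 in the middle sums, with a log2 change of -0.53 (SE 0.19, edgeR adjusted p = 0.9997). Of the granule neuron list 1 had a higher and 29 a lower value among 30, with a median of -0.34 beside -0.0022 for all genes. Nfia was at 36.5, 18.7 and 21.4, above the mito-low level in each tumour, with a log2 change of 0.35 (SE 0.18, edgeR adjusted p = 0.9997).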

How the data were processed

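Drop-seq libraries of 3 tumours were used as the authors deposited them, as tables of whole-number counts per gene and cell barcode with no normalization. The labels do not state how the counts were made. The submitters' processing notes name STAR, Cell Ranger and the human build GRCh38, although 94.0% of the 19744 symbols match mouse GENCODE M21 names. Every deposited barcode has at least 50 genes. Tables of the 3 tumours are not copies of each other (chi-square per degree of freedom of 5.35 to 8.06 between pairs).

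Counts of nuclear genes were summed per tumour and set, with the non-mitochondrial total as library size. A level is therefore a share of RNA, not an amount per cell. Genes with at least 30 counts over the 6 sums were tested with edgeR 4.0.16 (quasi-likelihood, Benjamini-Hochberg over all genes, threshold 0.05). The tumour was a block, since both sums of a pair come from the same animal. The steps were tested on simulated data. DESeq2 1.42.0, limma 3.58.1 (voom), other scalings, filters, thresholds and depths, and leaving out each tumour were alternatives. Doublets were kept, and removing those called by Scrublet (scanpy 1.11.5, expected rate 6%) was an alternative. Shares have exact Clopper-Pearson 95% intervals. Ratios of genes with few counts, and their intervals, pool the tumours without their pairing and are no test.

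The sets, gene lists and lists of cell type markers were chosen with earlier results of these data known. Named genes are up to 3 per list by smallest p and a set of fixed genes such as Malat1, Actb, Ccnd2 and Cdk4. The rule's other part, the largest changes past the threshold, named none. The text gives part of these. Genes it names beyond that rule, chosen after their values were seen, are Apoe, Ctsd, Ctss, Tyrobp, Stmn4, Sparc, Sparcl1, Bsg, Gap43, Dcx, Sox9, Rab14 and Tfam. Genes with at most 3 counts in the mito-high sums (Ndufs6, Mrps25, Cdkn1a) fall under the rule, but were singled out for that after their values were seen.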

Additional observations from a re-analysis of the deposited data

How the results depend on the processing

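With all 3 tumours no gene was called in the comparison of mito-high with mito-low barcodes. TMM scaling, DESeq2, limma-voom, no low-count filter, a minimum of 100 counts per gene, more than 15% or 20% in the high set, and leaving out genes that can share reads, Malat1, or barcodes called microglia or macrophage gave 0 calls too. The fit with no replicate block (the tumour not a term) also gave 0 calls, so the pairing changed no call. Leaving out each tumour gave 0 to 11 calls, the highest without tumour 2. The number of genes tested differed between alternatives, so their calls are not a like comparison. It was 1851, 3947 and 2366 without tumours 1, 2 and 3, and 1532 after thinning. Calls numbered 3 with at most 3% in the low set, 1 with the share taken from protein-coding mitochondrial genes, 5 with at least 200 non-mitochondrial counts, 1 with at least 500 counts per barcode, 1 in barcodes of at least 200 and under 400 non-mitochondrial counts, 3 after thinning to 150, 1 without barcodes called as another cell type and 7 without called doublets. Among 3 alternatives chosen after seeing the data, leaving out barcodes of over 1000 non-mitochondrial counts gave 12 calls, those called astrocyte or Bergmann glia 2, and those called microglia or macrophage 0. The cause was not tested. In barcodes of at least 100 and under 200 counts, limma-voom called 1 gene, Malat1, and leaving out each tumour gave 0 to 0. For the middle against the mito-low set, leaving out each tumour gave 0 to 6 calls, the highest without tumour 2 (Apoe, Lyz2, Sox9 and Sparcl1 higher, Neurod1 and Rab14 lower). The genes followed over the alternatives included, beyond the naming rule, every gene called in any of them. Of their 2728 values under an alternative, 47 passed the threshold where the value with all tumours did not. These 47 are all calls of the alternatives, so they give no rate of passing among named genes. Another 133 values had the opposite sign, none of these past the threshold. Depth limits what can be seen: the mito-low sum of tumour 2 held 10520 non-mitochondrial counts, and 4088 of 19744 genes could be tested.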
